A study of Mus musculus with 12 samples.

Results

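The imprinted long non-coding RNA genes Kcnq1ot1, Airn, Nespas, Peg13, Snhg14 and H19 were followed in hippocampus and cerebral cortex of 5 × FAD and WT mice. Members were the transcripts of the deposited lncRNA count table that carry one of these gene names in the GENCODE M21 annotation. The rule found 30 transcripts of the 48033 in the table, from 6 of 22103 genes and assembled loci. Snhg14 contributed 14 transcripts, Airn 6, H19 5, Nespas 3, and Kcnq1ot1 and Peg13 1 each. Every transcript was read singly and as a sum per gene. Together the members held a median of 0.884% of a library's counts, with a range of 0.785% to 0.992%.

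Imprinted genes are expressed mainly from 1 of the parental chromosomes, and most lie in clusters under the control of a region that carries methylation on only 1 of these chromosomes. Several clusters hold a long paternal RNA that runs antisense to a protein-coding gene and is needed to keep neighbouring genes silent in cis. Kcnq1ot1 and Airn are the textbook cases, whereas H19 is made from the maternal chromosome. Snhg14 is known in neurons, where the long paternal transcript runs through the snoRNA clusters of the Prader-Willi and Angelman region into Ube3a. All mice here were of the inbred strain C57BL/6J, so the counts carry no information on the parent of origin, and imprinting itself was not measured.

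The 5 × FAD mouse carries human APP with the Swedish, Florida and London mutations and human PS1 with a pair of mutations, expressed in neurons from elements of the Thy1 gene. WT mice were non-transgenic, on the same C57BL/6J background and of the same age of 7 months. Each of the 4 groups (WT cortex, 5 × FAD cortex, WT hippocampus and 5 × FAD hippocampus) had 3 libraries of rRNA-depleted total RNA, made with a stranded kit and sequenced from both ends. The design compares 5 × FAD with WT mice within a region and the regions with each other. Totals were between 3517967 and 5014389 counts per library, of which assembled transcripts without an Ensembl name took 33.2% to 40.7%.

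A hippocampal list, with 3 of 9 genes in the table, summed to 126 to 170 CPM (counts per 1000000 counts of the library) in the hippocampus and 71.9 to 106 CPM in the cortex, and a cortical list with 5 of 8 genes to 75.6 to 113 and 114 to 191 CPM. The hippocampal sum was carried by Zbtb20, with 424 to 585 counts in hippocampus and 90 to 189 in cortex libraries. Spock1 did not follow the labels, with 69 to 221 and 144 to 274 counts, and Lct had at most 9. The libraries numbered 1 and 2 of the 5 × FAD mice stood apart in both regions: they held 30468 to 46630 counts of Xist and 0 of the Y-linked genes, whereas the other 8 libraries held at most 25 counts of Xist and 1074 or more Y-linked counts. The study states 2 females and 1 male in each group, which these counts go against for the WT mice. Sex and genotype therefore cannot be told apart for these libraries, and values without them are given below. P-values measure only the spread between these libraries.

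The members fell into an abundant and a scarce set. Levels of the members are given as CPM of library totals scaled by TMM. By summed counts, Snhg14 ranked 11 of 22103 genes and loci, Kcnq1ot1 ranked 15 and Peg13 ranked 28. Airn ranked 8249, Nespas 9998 and H19 12521. The Airn transcripts are annotated as spliced, with 435 to 1375 exonic bases over spans of 14405 to 118826 bases. Reads from the introns of Airn need not be in its counts. Compared per length, as CPM per kilobase of transcript summed over a gene's transcripts, the Snhg14 sum was highest, with a median of 3262 over the 12 libraries. This sum adds 14 transcripts placed along Snhg14 but only 1 each for Peg13 and Kcnq1ot1, so it grows with the number of annotated transcripts. Single Snhg14 transcripts had medians between 4.09 and 696, a range that holds the Peg13 median. The lead of Snhg14 over Peg13 therefore depends on the summing. Peg13 had a median of 447, Kcnq1ot1 32.7, Airn 10.9, Nespas 2.47 and H19 0.543. The ranges of neighbours in this order did not overlap for Snhg14 (3062 to 3882), Peg13 (313 to 648), Kcnq1ot1 (24.3 to 34.2) and Airn (5.16 to 21.7). Those of Nespas (1.30 to 4.65) and H19 (0 to 1.84) overlapped. Kcnq1ot1 and Peg13 changed places relative to the count order because Kcnq1ot1 is annotated as 93092 bases and Peg13 as 4725.

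**Figure D1:**
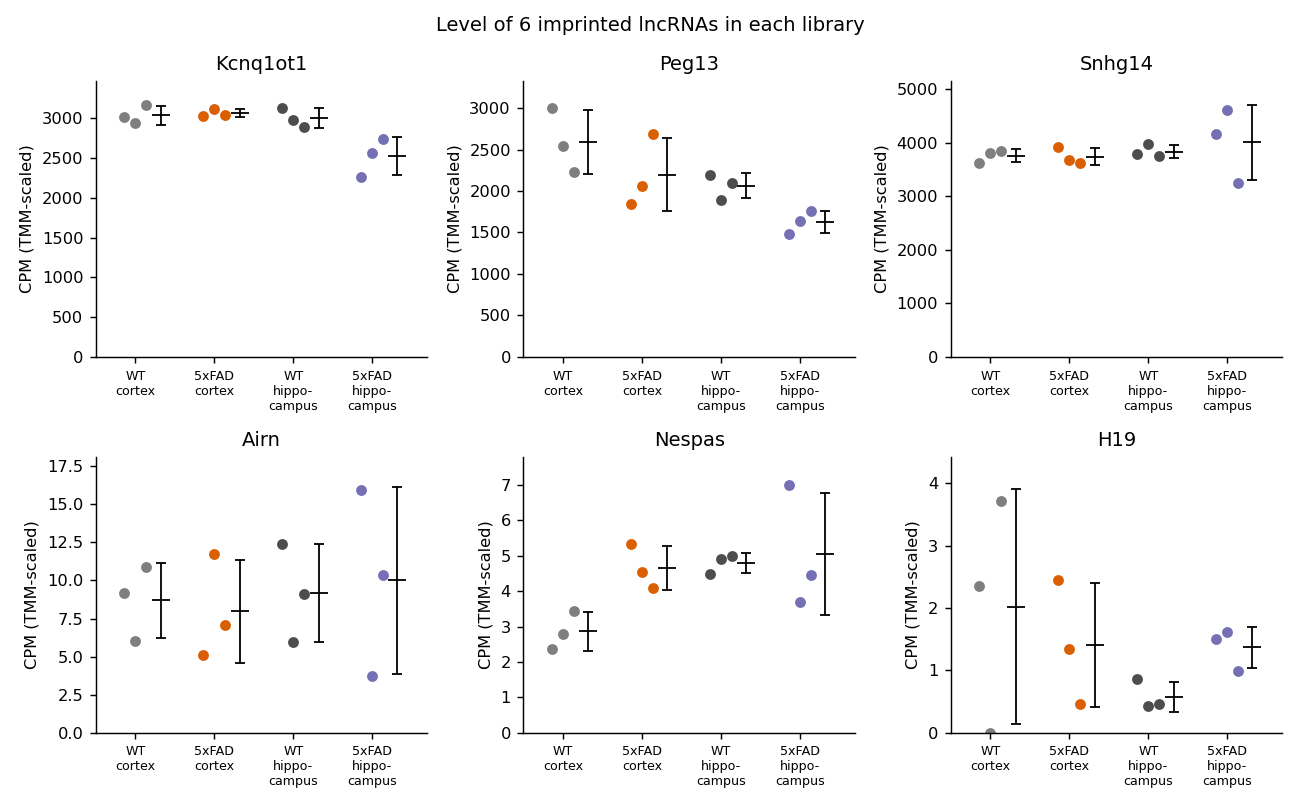
Level of each imprinted lncRNA gene in the 12 libraries, in TMM-scaled CPM of the summed transcripts, by region and genotype. Points are single libraries, bars are group means with SD (n = 3), and each panel has its own vertical axis. In the hippocampus, the 5 × FAD points of Kcnq1ot1 and Peg13 lie below the WT points.

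No member gene and no member transcript passed an adjusted p of 0.05 in edgeR when 5 × FAD was compared with WT mice. In the hippocampus 5 member genes and 19 transcripts passed the filter on low counts, and 0 were called, beside 0.0529% of all genes and 0.0183% of all transcripts. At an unadjusted p under 0.05 there were 0 genes and 2 transcripts, both of Snhg14, where 8.69% of all genes and 7.58% of all transcripts were under it. DESeq2 called 0 and 0, beside 0.734% of all genes and 0.583% of all transcripts. In the cortex 6 genes and 18 transcripts were tested and 0 were called, beside 0.0175% of all genes and 0.0545% of all transcripts. There 0 had an unadjusted p under 0.05, beside 6.67% of all genes and 5.34% of all transcripts, and DESeq2 called 0, beside 0.466% and 0.465%. The median log2 fold change of the member genes was 0.09 in the hippocampus, where that of all genes was 0.03, and -0.07 in the cortex, where that of all genes was 0.00.

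Between hippocampus and cortex, 0 of 5 member genes and 0 of 19 member transcripts were called by edgeR, whereas 6.97% of all genes and 2.82% of all transcripts were. Peg13 was nearest to the threshold. At an unadjusted p under 0.05 there were 1 gene, Peg13, and 2 transcripts, those of Peg13 and ENSMUST00000185693 of Snhg14, beside 19% of all genes and 13.7% of all transcripts. DESeq2 called Peg13 as a gene and as a transcript, beside 9.95% of all genes and 5.39% of all transcripts. The median log2 difference was 0.06 for the member genes and 0.00 for all genes. Whether genotype acted differently in the regions was tested by the difference of both genotype effects, which was called for 0 of 6 member genes (0 of 12104 genes, 0%) and 0 of 21 transcripts (0.00812% of all transcripts). No gene and 3 transcripts, all of Snhg14, had an unadjusted p under 0.05 in that test, beside 7.01% of all genes and 6.89% of all transcripts. DESeq2 called 0 genes and 0 transcripts, beside 0.191% and 0.405% of all.

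**Figure D2:**
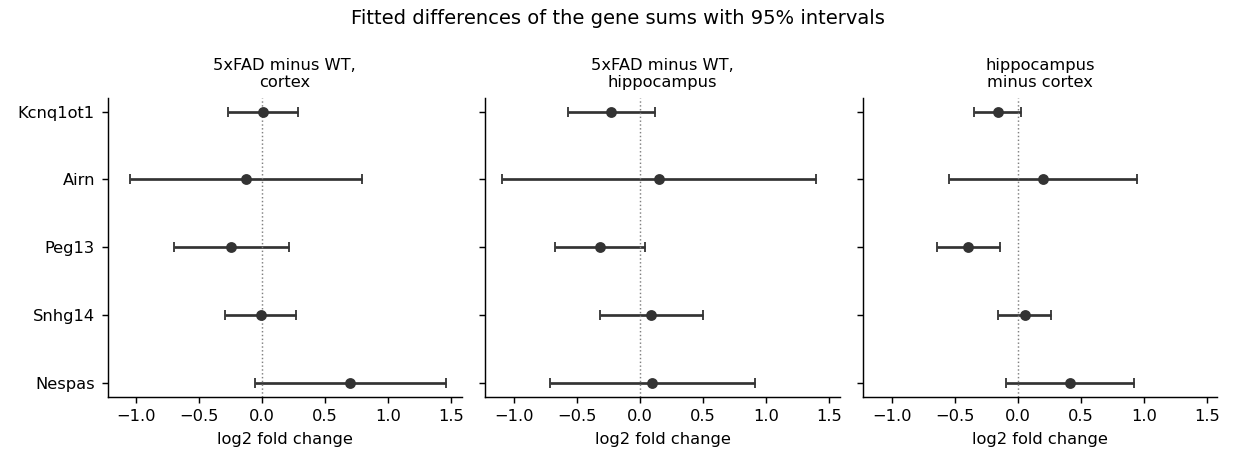
Log2 fold change of each member gene in the 5 × FAD against WT comparison of each region, and in hippocampus against cortex, from edgeR fits of the summed counts. Points are estimates and lines are 95% intervals. The intervals include 0 except that of Peg13 between the regions. H19 is not drawn.

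Kcnq1ot1 lies on the minus strand of chr7:143203458-143296549 (GRCm38) as a single exon inside the protein-coding gene Kcnq1, which is on the plus strand. It is the antisense RNA of the Kcnq1 cluster, which holds the growth inhibitor Cdkn1c. With the strand setting of the counting not given, its reads and those of Kcnq1 introns cannot be told apart. In the hippocampus it measured 3133, 2976 and 2891 CPM in WT libraries 1, 2 and 3, and 2265, 2561 and 2735 CPM in 5 × FAD libraries 1, 2 and 3. Every 5 × FAD value was below every WT value. Kcnq1ot1 and Peg13 were the 2 of 5 tested member genes whose groups did not overlap in the hippocampus, and 16.5% of all genes tested did not overlap either. The means were 2521 ± 238 and 3000 ± 123 CPM (SD, n = 3 each), and the log2 fold change was -0.22 (SE 0.15, 95% interval -0.57 to 0.12, edgeR adjusted p = 0.673). Without 5 × FAD libraries 1 and 2 the log2 fold change was -0.11.

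In the cortex Kcnq1ot1 measured 3013, 2934 and 3165 CPM in WT and 3029, 3119 and 3039 CPM in 5 × FAD mice. These values overlapped, and the spread within a group was small, with SDs of 118 and 49.5 CPM. The log2 fold change was 0.01 with an interval of -0.27 to 0.28. The genotype effect in the hippocampus minus that in the cortex was -0.26 (SE 0.16, interval -0.62 to 0.10, adjusted p = 0.784). The difference between hippocampus and cortex was -0.16 (SE 0.09, interval -0.35 to 0.03, adjusted p = 0.354).

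Of the 6 members, Kcnq1ot1, Airn and Snhg14 had a RefSeq promoter window of 300 bases around the transcript start (GRCm38.p6). The letters searched on both strands were of 3 kinds: TGCCGC, the hexamer bound by ZFP57, which keeps methylation at imprinted control regions; TATAAA, the TATA box; and CCAAT, which was added after the windows had been read. The window of Kcnq1ot1 (chr7:143296498-143296797, minus strand) held CCAAT at 3 places, shown in capitals because 3.37% of the 32851 windows of all genes held it that often and 37.4% held it at all.
Kcnq1ot1 promoter: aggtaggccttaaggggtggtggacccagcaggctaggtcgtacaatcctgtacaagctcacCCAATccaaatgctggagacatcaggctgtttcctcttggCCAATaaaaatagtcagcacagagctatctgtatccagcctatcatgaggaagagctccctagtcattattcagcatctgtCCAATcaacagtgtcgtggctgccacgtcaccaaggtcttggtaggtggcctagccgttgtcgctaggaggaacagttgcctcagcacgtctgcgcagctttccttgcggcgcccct
The Snhg14 window held CCAAT at 2 places and that of Airn at none. TATAAA was found once in the Airn window and in 13.6% of all windows, and TGCCGC in 0 of the 3 member windows and 11.6% of all.

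Airn is the antisense RNA that silences Igf2r, the receptor that carries IGF2 to the lysosome. It lies on the plus strand of chr17:12741311-12860136, and 5 of its 6 transcripts start between positions 12741311 and 12741398, inside Igf2r on the minus strand. Counts were low and 1 transcript was at 0 in every library. The summed counts were 39, 28 and 38 in WT cortex, 23, 44 and 31 in 5 × FAD cortex, 58, 28 and 40 in WT hippocampus, and 64, 16 and 42 in 5 × FAD hippocampus. The highest and the lowest library were both of the 5 × FAD hippocampus. As CPM, that group ran from 3.70 to 16.0 and WT hippocampus from 5.96 to 12.4, so the groups overlapped. The log2 fold change was 0.15 in the hippocampus (SE 0.53, interval -1.10 to 1.40) and -0.13 in the cortex (interval -1.05 to 0.79). At this depth a 2-fold difference in either direction was within the interval in the hippocampus.

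Nespas is the antisense RNA of the Gnas cluster, at chr2:174281237-174295436 on the minus strand, and runs across the start of Gnas, which encodes the stimulatory G protein alpha subunit. Its 3 transcripts summed to 10, 13 and 12 counts in WT cortex and 24, 17 and 18 counts in 5 × FAD cortex. Every 5 × FAD cortex library was above every WT cortex library. Nespas was the 1 of 6 member genes whose groups did not overlap in the cortex, as did not 13.1% of all genes. In CPM the means were 4.65 ± 0.626 and 2.86 ± 0.540 (SD, n = 3 each), and the log2 fold change was 0.70 (SE 0.32, interval -0.06 to 1.46, edgeR adjusted p = 0.749). In the hippocampus the counts were 21, 23 and 22 in WT and 28, 16 and 18 in 5 × FAD mice. There the groups overlapped and the log2 fold change was 0.10 (SE 0.35, interval -0.72 to 0.91). The difference of the genotype effects was -0.63 (SE 0.44, interval -1.61 to 0.34, adjusted p = 0.809). Without 5 × FAD libraries 1 and 2, the values were 0.52 in the cortex and -0.09 in the hippocampus. The Nespas transcript with the most counts overlapped between the cortex groups. Its ranges were 1.92 to 2.85 CPM (WT) and 2.76 to 3.82 CPM (5 × FAD). A scarcer transcript, not tested because of low counts, was apart there, at 0.436 to 0.570 CPM (WT) against 1.38 to 1.63 CPM (5 × FAD). This scarcer transcript lies inside Gnas on the opposite strand. With the strand setting not given, its reads and those of Gnas cannot be told apart.

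Peg13 is a single-exon RNA on the minus strand of chr15:72805600-72810324, inside an intron of Trappc9 on the same strand, so that its counts can hold unspliced Trappc9 reads. It is paternally expressed in the brain and known for the insulator function of its methylated control region. In the cortex it measured 3003, 2541 and 2229 CPM in WT and 1842, 2060 and 2686 CPM in 5 × FAD mice. The groups overlapped, and the log2 fold change was -0.24 (SE 0.19, interval -0.69 to 0.21, adjusted p = 0.842). In the hippocampus it measured 2199, 1896 and 2097 CPM in WT and 1484, 1643 and 1753 CPM in 5 × FAD mice. Each of the 5 × FAD values was lower than each of the WT values there. The means were 1627 ± 135 and 2064 ± 154 CPM (SD, n = 3 each), with a log2 fold change of -0.32 (SE 0.15, interval -0.68 to 0.04, edgeR adjusted p = 0.600). Without 5 × FAD libraries 1 and 2 it was -0.21 in the hippocampus and turned to 0.05 in the cortex.

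Peg13 was the member gene with the smallest p between the regions. Its level in the hippocampus was 0.763 times that in the cortex (95% interval 0.643 to 0.905), a log2 difference of -0.39 (SE 0.11, interval -0.64 to -0.14), with an adjusted p of 0.0599 in edgeR and 0.0199 in DESeq2. In edgeR without TMM scaling, by library size only, the adjusted p was 0.0467 (7.09% of all genes were called), and under the other alternatives it was between 0.0547 and 0.439. Within WT mice the log2 difference was -0.35 and within 5 × FAD mice -0.44. Cortex libraries ran from 1842 to 3003 CPM and hippocampus libraries from 1484 to 2199 CPM, so the regions overlapped.

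The Peg13 transcript holds the ZFP57 hexamer near its start, which is why its first 300 bases (chr15:72810025-72810324, minus strand) are shown, with the matches in capitals. These bases hold 2 matches, and 1.49% of the first 300 bases of 43976 transcripts of the table held 2 or more, whereas 11.2% held at least 1. The whole transcript of 4725 bases holds 6.
Peg13 transcript start: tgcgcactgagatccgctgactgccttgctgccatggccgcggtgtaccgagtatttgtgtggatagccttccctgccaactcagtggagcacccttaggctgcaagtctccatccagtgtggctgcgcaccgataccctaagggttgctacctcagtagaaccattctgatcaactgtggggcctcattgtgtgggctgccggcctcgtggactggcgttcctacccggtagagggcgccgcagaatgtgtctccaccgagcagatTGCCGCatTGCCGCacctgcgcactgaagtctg
A match is a match of letters, and binding of ZFP57 and methylation were not measured.

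The lower hippocampal values of Kcnq1ot1 and Peg13 in 5 × FAD mice came with other differences in the same libraries. The marker lists were read from the lncRNA counts, with 16 transcripts for astrocytes, 3 for microglia and 13 for neurons. Their sums therefore need not follow the mRNA of these genes. The astrocyte list, with 4 of 5 genes in the table, summed to 505 to 1211 CPM in 5 × FAD and 1381 to 1486 CPM in WT hippocampus. Gfap, the defining astrocyte gene, had at most 7 counts in any library, and most of the list's counts were of Slc1a3. The microglia list, with 2 of 7 genes, summed to 46.0 to 197 CPM in 5 × FAD and 26.9 to 40.2 CPM in WT hippocampus, with the higher values in 5 × FAD libraries 1 and 2. The neuron list overlapped between the groups, at 1440 to 6947 CPM in 5 × FAD and 1008 to 2867 CPM in WT hippocampus. 5 × FAD library 1 was highest, with 14888 counts of Slc17a7 and 9574 of Gad1, markers of glutamatergic and GABAergic neurons. The rest of the list did not rise alike in it. Snap25 had 730 counts, the fewest of any library. Gad2 had 27 and Syt1 2245, beside 10 to 36 and 1176 to 2651 in the other hippocampus libraries, and Rbfox3 had 64, beside 29 to 63. Without 5 × FAD library 1 the hippocampal log2 fold change was -0.16 for Kcnq1ot1 and -0.26 for Peg13. In bulk tissue, fewer cells of a type and less RNA per cell cannot be told apart, and the part of these differences in the values of Kcnq1ot1 and Peg13 was not tested.

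Snhg14 covers chr7:59307924-59975759 on the minus strand, from beside Snrpn to the end of Ube3a, whose gene it meets on the opposite strand. It is the host of 208 annotated snoRNA genes, all on the same strand. By length they fell into a class of 136 genes at chr7:59342226-59619095 and a class of 70 genes at chr7:59673461-59904848, and 2 genes of other lengths were in neither. The first class is the Snord115 cluster and the second the Snord116 cluster, 17 of whose genes carry a Snord116 name. Both are box C/D snoRNAs, which guide methylation of other RNAs. Snord115 is known for its match to a serotonin receptor mRNA and loss of Snord116 for the Prader-Willi phenotype. The commonest copy of each class is shown because the Snhg14 transcripts below are told apart by which of these clusters they run through. Capitals mark the letters TGATGA of box C and CTGA of box D wherever they occur.
Snord115 class, commonest copy: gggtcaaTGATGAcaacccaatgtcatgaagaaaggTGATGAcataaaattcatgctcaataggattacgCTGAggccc
Snord116 class, commonest copy: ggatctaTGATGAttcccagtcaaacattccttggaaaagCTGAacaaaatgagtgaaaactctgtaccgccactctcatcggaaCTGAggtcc
The first has 79 bases and 33 identical copies among 56 distinct sequences of its class, and the second 94 bases and 30 copies among 27 distinct sequences.

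Summed over its transcripts, Snhg14 measured 3620, 3799 and 3852 CPM in WT cortex and 3911, 3685 and 3617 CPM in 5 × FAD cortex. These 6 values lay close together. In the hippocampus it measured 3779, 3984 and 3742 CPM in WT and 4160, 4605 and 3247 CPM in 5 × FAD mice. The 5 × FAD hippocampus held both the highest and the lowest library, with an SD of 693 CPM beside 121 to 154 CPM in the other groups. The log2 fold change was 0.09 in the hippocampus (SE 0.17, interval -0.32 to 0.50) and -0.01 in the cortex (interval -0.29 to 0.27), and the difference between the regions was 0.06 (interval -0.16 to 0.27). Without 5 × FAD libraries 1 and 2 the hippocampal value turned to -0.22.

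The 14 transcripts behind this sum did not move alike in the 5 × FAD hippocampus. Of the 7 transcripts of the Snord116 cluster, 6 had a log2 fold change above 0, between 0.04 and 0.65, and both of the Snord115 cluster were below 0. None passed the adjusted threshold. The smallest unadjusted p was that of ENSMUST00000188162, which spans chr7:59711359-59904686 and has 6 exons and 56 snoRNA genes within it. It measured 388, 374 and 399 CPM in WT hippocampus and 703, 612 and 485 CPM in 5 × FAD hippocampus. The groups did not overlap, and 5 × FAD library 3 was the nearest to WT. In the cortex it measured 432, 498 and 435 CPM in WT and 415, 438 and 431 CPM in 5 × FAD mice. These groups overlapped. The hippocampal log2 fold change was 0.65 (SE 0.20, interval 0.18 to 1.12, unadjusted p = 0.0146, edgeR adjusted p = 0.612). Without 5 × FAD libraries 1 and 2 it was 0.33. The cortical value was -0.09 (SE 0.13). The test of the difference between the regions gave 0.72 (SE 0.21, interval 0.25 to 1.19, unadjusted p = 0.00638, adjusted p = 0.613).

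ENSMUST00000186345 and ENSMUST00000185815, shorter transcripts of the same cluster, had the other unadjusted p-values under 0.05 in the test of the difference, with values of 0.69 (SE 0.25, adjusted p = 0.660) and 0.43 (SE 0.19, adjusted p = 0.698). In the hippocampus ENSMUST00000185815 measured 389, 447 and 439 CPM in WT and 538, 574 and 459 CPM in 5 × FAD mice. ENSMUST00000186345 measured 167, 157 and 194 CPM in WT and 270, 259 and 186 CPM in 5 × FAD mice. The first was apart between the groups and the second overlapped through 5 × FAD library 3. In the cortex the log2 fold changes were below 0, at -0.13 (SE 0.12) for ENSMUST00000185815 and -0.22 (SE 0.14) for ENSMUST00000186345, so the cortex also entered these differences. There ENSMUST00000186345 measured 196, 197 and 192 CPM in WT and 182, 170 and 149 CPM in 5 × FAD mice, and the groups did not overlap.

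The transcript of the Snord115 cluster with the most counts, ENSMUST00000189408 (chr7:59384597-59411173, 17 exons, 9 snoRNA genes), was on the other side. It measured 715, 785 and 710 CPM in WT and 581, 512 and 582 CPM in 5 × FAD hippocampus. All 3 of the 5 × FAD values were below the WT values, library 3 included. The log2 fold change was -0.39 (SE 0.16, interval -0.77 to 0.00, unadjusted p = 0.0482, adjusted p = 0.656), and without 5 × FAD libraries 1 and 2 it was -0.33. ENSMUST00000188262, the other transcript of this cluster, measured 297, 325 and 298 CPM in WT and 248, 209 and 241 CPM in 5 × FAD hippocampus, with a log2 fold change of -0.38 (SE 0.17, adjusted p = 0.663). Its groups did not overlap either. In the cortex the values of these transcripts were -0.10 and -0.04.

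Of the 19 member transcripts tested in the hippocampus, 8 had groups that did not overlap, 4 of them lower and 4 higher in 5 × FAD mice, beside 15.7% of all transcripts. The lower ones were those of Kcnq1ot1 and Peg13 and both of the Snord115 cluster, and the higher ones were 4 of the Snord116 cluster. In the cortex 2 of 18 did not overlap, beside 12.1% of all transcripts, and the log2 fold changes of the Snhg14 transcripts were between -0.22 and 0.36.

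**Figure D3:**
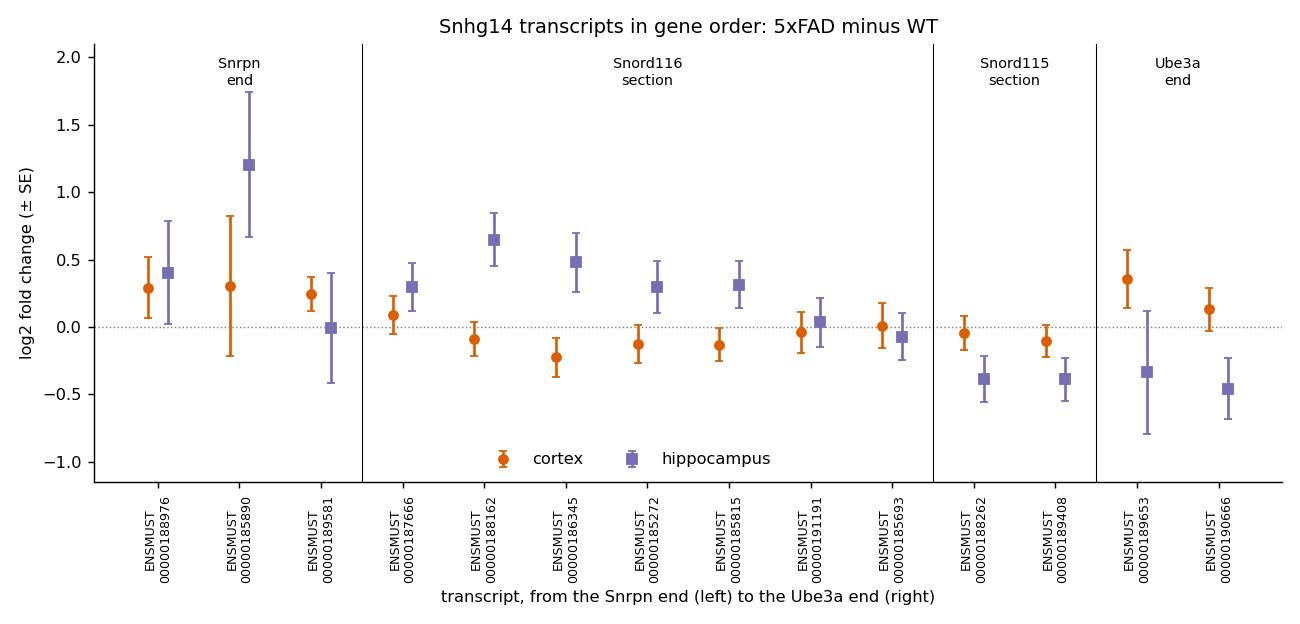
Log2 fold change of the 14 Snhg14 transcripts in 5 × FAD against WT mice, in hippocampus and cortex, ordered along the gene from the Snrpn end to the Ube3a end, from edgeR fits of the counts per transcript. Points are estimates and lines are ± 1 SE. The Snord115 section transcripts lie near -0.4 in the hippocampus and ENSMUST00000188162 at 0.65. ENSMUST00000185890, at 10.3 CPM or less in every library, has an estimate of 1.20 and an interval from -0.08 to 2.49.

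The transcripts were then summed by the section of the gene they run through. The sections were drawn after the values of single transcripts had been seen, so their sums are a description and were not tested. In the hippocampus the 7 transcripts of the Snord116 section summed to 1519, 1592 and 1697 CPM in WT and 2253, 2117 and 1771 CPM in 5 × FAD mice. The 2 transcripts of the Snord115 section summed to 1012, 1109 and 1008 CPM in WT and 829, 721 and 823 CPM in 5 × FAD mice. The first was higher and the second lower in each 5 × FAD library than in each WT library. The ratio of the Snord116 to the Snord115 section was 1.50, 1.44 and 1.68 in WT and 2.72, 2.94 and 2.15 in 5 × FAD hippocampus. In the cortex it was 1.64, 1.78 and 1.70 in WT and 1.62, 1.76 and 1.71 in 5 × FAD mice. The ratio sets the section that was higher in the 5 × FAD hippocampus over the one that was lower, so it is no separate observation from the sums. Each of the 3 libraries of the 5 × FAD hippocampus was above the other 9 in this ratio, library 3 the least. Its libraries 1 and 2, the farthest from WT, were those high in Xist, and the part of sex in the ratio was not tested.

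The ends of the gene varied more between libraries. The 3 transcripts of the Snrpn end summed to 961, 972 and 783 CPM in WT and 847, 1482 and 472 CPM in 5 × FAD hippocampus. Library 2 was highest and library 3 lowest, and the SD of 511 CPM was the largest of the 4 sections in that group, followed by 248 CPM for the Snord116 section. The 2 transcripts of the Ube3a end, of which ENSMUST00000190666 overlaps Ube3a on the opposite strand, summed to 329, 368 and 294 CPM in WT and 218, 327 and 183 CPM in 5 × FAD hippocampus. The groups overlapped.

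**Figure D4:**
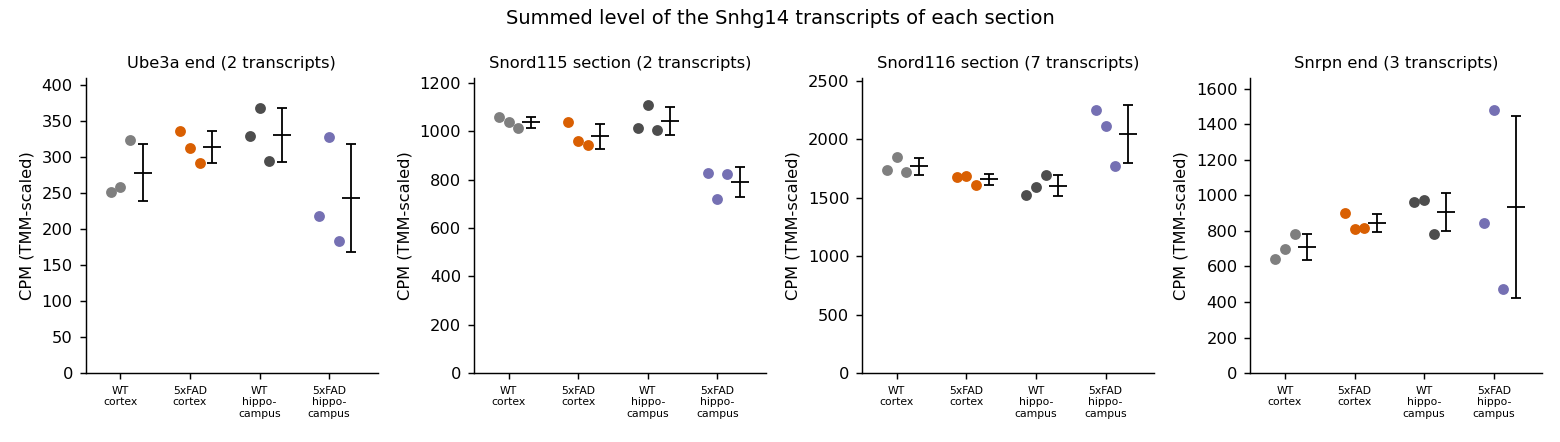
Summed level of the Snhg14 transcripts of each section in the 12 libraries, in TMM-scaled CPM, by region and genotype. Points are single libraries and bars are group means with SD (n = 3). In the 5 × FAD hippocampus the Snord116 section lies at 1771 to 2253 CPM, above WT, and the Snord115 section at 721 to 829 CPM, below WT.

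The split of reads between these transcripts is uncertain, because they share sequence. Of the windows of 50 bases in ENSMUST00000188162, 53.7% also occur in another Snhg14 transcript and 33.6% occur more than once within it. The share in another transcript was 79.5% for ENSMUST00000185815, 67.1% for ENSMUST00000186345, 38.6% for ENSMUST00000188262 and 15.7% for ENSMUST00000189408. For each of the 14 transcripts, the transcript that shared most windows with it lay in the same section of the gene. How the authors' counting treated repeated sequence is not given in the sources used here.

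The transcript with the most counts, ENSMUST00000189581 at the Snrpn end, took 19.3% ± 5.07 of the Snhg14 counts in hippocampus and 17.7% ± 1.80 in cortex (SD, n = 6 each). The difference of 1.64 percentage points gave a two-sided exact permutation p of 0.496, and the smallest p this test allows is 0.00216. It treated all libraries as independent and left out genotype, although both regions were taken from each mouse. Within the 5 × FAD hippocampus its share ran from 12.0% to 26.8%. It shares a stretch with Gm38393, a gene on the same strand, whose summed counts of 1055 to 3518 in that group had their lowest and highest values in the same libraries.

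H19 is a maternally expressed RNA that is abundant in the embryo and the host of a microRNA, and it was near the limit of detection. It lies on the minus strand of chr7:142575529-142578143, and 2 of its 5 transcripts were at 0 in every library. The summed counts were 10, 0 and 13 in WT cortex, 11, 5 and 2 in 5 × FAD cortex, 4, 2 and 2 in WT hippocampus, and 6, 7 and 4 in 5 × FAD hippocampus. With 3 counts taken as the floor, which is 0.598 to 0.853 CPM, 4 libraries were below it. H19 did not pass the filter in the hippocampus. In the cortex its log2 fold change was -0.46 with an interval of -2.96 to 2.05, so that no direction could be read at this depth.

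The pattern over the 12 libraries was compared with that of 7542 other named genes and loci with at least 10 counts in every library, by the Pearson correlation of log2 CPM. Libraries of 4 groups, shared scaling and shared depth enter each of these values, which are a description. The nearest to Kcnq1ot1 were Gnao1 (r = 0.956), Uqcr10 (0.942) and Cul1 (0.933). Those nearest to Peg13 were Faxc (0.957), Ythdf2 (0.912) and Fam196a (0.902), and those nearest to Snhg14 were Ptbp2 (0.977), Paxbp1 (0.935) and Nasp (0.923). Airn and Nespas, with few counts, reached 0.815 with Tcerg1l and 0.843 with Map4k4, followed for Airn by Ppp2ca (0.806) and Zfp26 (0.793) and for Nespas by Dnajc13 (0.841) and Rufy3 (0.832). All of these are protein-coding genes whose rows in this table are retained-intron or processed transcripts. Among the members themselves, r was 0.688 between Kcnq1ot1 and Peg13 and -0.758 between Peg13 and Nespas.

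The neighbours of the members in their imprinted domains, with other imprinted genes, made a list of 64, of which 37 had a transcript in the table and 30 were tested for genotype in each region. EdgeR called 0 in each of the regions, and DESeq2 called 0 and 0. At an unadjusted p under 0.05 there were 2 in hippocampus, a smaller share than the 8.69% of all genes, and 0 in cortex, beside 6.67%. Their median log2 fold change was 0.04 in hippocampus and 0.03 in cortex. Of 31 tested between the regions, 1 was called lower in the hippocampus and 0 higher, and DESeq2 called 1, beside 6.97% and 9.95% of all genes. By both tools it was Osbpl5, an oxysterol-binding protein gene of the Kcnq1 cluster, at mean levels of 99.3 and 97.5 CPM in WT and 5 × FAD cortex and 64.8 and 65.8 CPM in WT and 5 × FAD hippocampus (log2 difference -0.60, SE 0.12, adjusted p = 0.0108). The transcripts of Ube3a, on the opposite strand of the Snhg14 end, had a log2 fold change of 0.21 in the hippocampus (SE 0.30). Within WT hippocampus the non-coding transcripts of Gnas ran from 597 to 11428 counts, and within WT cortex those of Igf2 from 1 to 1033, so no level is read for them here. The table held none of the 5 genes listed for the Igf2r domain and no Trappc9.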

How the data were processed

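RNA of both brain regions was depleted of rRNA and made into stranded libraries, per the labels. Counts per transcript are in the single table the authors deposited, as whole numbers without normalization, with 12 libraries and 0 columns left out. Trimmomatic 0.36 and edgeR are named in the submitters' processing notes. Aligner, counting program, strand setting, genome build and annotation are not given in the sources used here. Names and positions came from GENCODE M21 on GRCm38, where 225 of 45597 Ensembl identifiers were not found. No row of the table lacked a feature name.

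Counts per transcript, and counts summed per gene or assembled locus, entered edgeR 4.0.16 under R 4.3.3 (filterByExpr, TMM scaling, glmQLFit and glmQLFTest, Benjamini-Hochberg adjustment over every feature tested, threshold 0.05). The 6 libraries of a region entered each comparison of genotype. All 12 entered the comparison of regions, with genotype as a term, and the test of the difference of the genotype effects. Both regions were taken from each mouse, but these main fits had no term for the mouse. The standard error was the log2 fold change divided by the square root of F. The share of the leading transcript was compared by an exact permutation test. CPM used TMM-scaled totals of all 12 libraries, so ratios of mean CPM differ slightly from fitted fold changes. Library totals of 3517967 to 5014389 counts limit the precision, and floors of 3 counts cover counting error only. Each pair of libraries of a group differed by more than sampling noise.

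Alternatives were DESeq2 1.42.0, its size factors in edgeR, library size only, 2 other filters on low counts, leaving out assembled transcripts, each library in turn or 5 × FAD libraries 1 and 2, the replicate number as a block, and other sets of libraries in the fit. The per-transcript test of the difference and the sections of Snhg14 were added after the data were seen. The members and gene lists were chosen with earlier results of these data known. Every member gene was named; single transcripts with at least 20 counts in some library, the 3 genes nearest in pattern to a member with at least 10 counts in every library, and listed neighbours with at least 10 counts in every library or called could be named. Of the listed marker genes, those of oligodendrocytes, endothelium, choroid plexus and meninges were summed but bear on no result given. The functions were tested on simulated counts with changes given to features drawn from all those tested. For genotype, edgeR called 3 of 68 genes changed 2-fold in hippocampus and 6 of 59 in cortex. Of transcripts changed 2-fold it called 0 of 65 and 0 of 55. Between the regions it called 28 of 62 genes and 9 of 59 transcripts changed 2-fold. A count of 0 called therefore does not by itself speak against a 2-fold change. Tables and figures used Python 3.11.15, pandas 2.3.3, scipy 1.17.1 and matplotlib 3.10.9. The RNase R-treated circRNA libraries of the paper were not used here.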

Additional observations from a re-analysis of the deposited data

How the results depend on the processing

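The counts of called member genes kept their value of 0 under every alternative run for genotype in either region and for the difference of the genotype effects, as did those of member transcripts for genotype. For transcripts the difference was fitted by edgeR and DESeq2 only, with 0 called. Between the regions, 1 member gene, Peg13, was called with library size only and with DESeq2, and 1 member transcript, that of Peg13, was called with DESeq2. The share of the leading Snhg14 transcript turned from 1.64 to -0.737 percentage points in the 5 × FAD libraries alone, and with each library left out in turn it was 0.143 to 3.11. Of 437 single values under an alternative, 411 kept direction and side of the threshold. Without 5 × FAD libraries 1 and 2, which leaves 1 5 × FAD library a region that is assumed to vary like the WT libraries, the log2 value turned to -0.22 for Snhg14 and -0.0873 for Nespas in the hippocampus, 0.0486 for Peg13 and -0.0021 for Kcnq1ot1 in the cortex, -0.0374 for Snhg14 between the regions and -0.16 for Snhg14 in the difference of the genotype effects. With no filter on low counts, Kcnq1ot1 in the cortex was -0.00092. The cause was not tested. Leaving out single libraries turned values near 0 or with few counts. Ranges in the hippocampus were -0.36 to 0.55 for Airn (negative without 5 × FAD library 1 or WT library 2), -0.0245 to 0.22 for Snhg14 (without 5 × FAD library 2) and -0.21 to 0.28 for Nespas (without 5 × FAD library 1). In the cortex they were -0.0136 to 0.0383 for Kcnq1ot1, -0.51 to 0.11 for Airn, -0.0495 to 0.0098 for Snhg14 and -1.08 to 0.28 for H19. Between the regions the range for Airn was -0.0305 to 0.38. For the difference of the genotype effects it was -0.25 to 0.66 for Airn, -0.20 to 0.0837 for Peg13 and -0.0431 to 0.23 for Snhg14. The labels do not tie a replicate number to a mouse or a batch. Deviations of same-numbered libraries correlated at -0.0984 to 0.152 between the regions and -0.106 to 0.0904 between genotypes, and 2 of 6 and 3 of 6 libraries correlated best with their own number, so the number was not taken to pair libraries. In 5 × FAD mice, libraries of the same number also matched between the regions in being high in Xist or not. With the number as a block, 0 member genes were called in any comparison and 0 member transcripts for genotype or region, the Peg13 difference between the regions was -0.38 and ENSMUST00000188162 in the hippocampus was 0.63. Depth limits Airn, Nespas and H19, whose counts were 64 or fewer in every library.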
